A study of Drosophila melanogaster with 24 samples.

Results

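The maltase family of *Drosophila melanogaster* was taken as 10 genes, the 8 genes *Mal-A1* to *Mal-A8* and the pair *Mal-B1* and *Mal-B2*. They were listed by FlyBase symbol, with earlier results of these data known. All 10 were found among the 17611 gene identifiers of the deposited count table. The table held RNA-seq read counts of whole adult w1118 flies, a white-eyed laboratory strain, reared on yeast-glucose medium, with males and females in equal numbers in each bottle. Rotenone, an inhibitor of complex I of the mitochondrial respiratory chain, was fed as a toxin model of Parkinson's disease. There were 6 groups of 3 libraries. CTRL flies received DMSO, the solvent, and PD flies received 250 µM rotenone in DMSO, for 7 days, and both were collected at 14 days of adult age. In the other groups feeding was stopped and the flies were kept for another 7 days on medium without rotenone, to 21 days of adult age. CWOFP (former controls) and PWOFC (formerly rotenone-fed) received no fecal microbiota transplantation (FMT). CWFP were former controls given gut content of PD flies in the medium, and PWFC were formerly rotenone-fed flies given gut content of CTRL flies. Per the paper, this gut content was obtained by grinding surface-disinfected flies in PBS, and flies without FMT stayed on the plain medium. In the FMT comparisons the microbiota therefore cannot be told apart from the other contents of the ground flies and the PBS. No genotype other than w1118 was used, and flies were pooled within a library.

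Maltases are alpha-glucosidases, enzymes that release glucose from the ends of maltose, sucrose and short starch fragments. In the fly most of them are digestive enzymes of the midgut, where they act after the amylases, which cut starch into maltose and short chains. Dietary glucose is known to lower the expression of amylase and maltase genes in the fly midgut, a response that runs through the activin-like ligand Dawdle and through the sugar-responsive transcription factors Mondo and Sugarbabe. All groups of this study were kept on medium that contained glucose.

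In the count table the *Mal-A* genes carry the FlyBase identifiers FBgn0002570 (*Mal-A1*), FBgn0002569 (*Mal-A2*), FBgn0002571 (*Mal-A3*), FBgn0033294 (*Mal-A4*), FBgn0050359 (*Mal-A5*), FBgn0050360 (*Mal-A6*), FBgn0033296 (*Mal-A7*) and FBgn0033297 (*Mal-A8*). *Mal-B1* and *Mal-B2* are FBgn0032381 and FBgn0032382. The 8 *Mal-A* genes lie side by side on chromosome arm 2R, in 24298 bases (BDGP6.54, the dm6 assembly, 8449664 to 8473961). From left to right the genes run from *Mal-A1* (8449664 to 8451904, minus strand) over *Mal-A2* (8453627 to 8455782, plus), *Mal-A3* (8455909 to 8457892, minus) and *Mal-A4* (8458815 to 8460884, plus) to *Mal-A5* (8462753 to 8465092, plus). They continue with *Mal-A6* (8465158 to 8467595, plus), *Mal-A7* (8468646 to 8471663, minus) and *Mal-A8* (8471954 to 8473961, plus). No other annotated gene lies wholly inside the cluster, and the spaces between neighbours range from 65 bases (*Mal-A5* to *Mal-A6*) to 1868 bases (*Mal-A4* to *Mal-A5*). *Mal-A1*, *Mal-A2* and *Mal-A3* are also known as larval visceral protein genes. *Mal-B1* (11847226 to 11849169) and *Mal-B2* (11849958 to 11852881) lie 788 bases apart on the plus strand of arm 2L. Both sit within the span of *Pde1c*, a phosphodiesterase gene of the opposite strand, with which they share 0 exon bases. At the edges of the *Mal-A* cluster, *Mal-A1* shares 82 exon bases with *Cyp4e1* and *Mal-A8* shares 6 with *mtt*, each on the opposite strand. Strand use in the read counting was not stated, so reads from those bases cannot be assigned to one gene with certainty. The overlapping genes were low: *Cyp4e1* had at most 10.9 CPM (read counts corrected for library size) and *mtt* at most 7.66.

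The libraries held 17920498 to 29165130 counts (median 21859942), and no pair of replicates was close enough to be a repeat of one library. The smallest count of any maltase gene in any library was 150. In 59 of the 60 combinations of gene and group the spread between replicates exceeded the Poisson counting error, the exception being *Mal-A5* in PD, with a replicate SD of 1.94% beside a counting error of 2.02%. All 10 genes passed the filter on low counts in every comparison. Levels are given in CPM after TMM normalisation, in the order of replicates 1, 2 and 3. A gene is called different where edgeR's quasi-likelihood test gave an adjusted p under 0.05 over all genes tested and the log2 fold change exceeded 1 in size. Nothing in the labels says that the libraries of a group came from separate rearings, and the p-values measure the spread between these libraries. Some libraries stood apart from others of their group in yolk protein (CTRL replicate 2, CWOFP replicate 3 and PWFC replicate 1), eggshell (CWFP replicate 3 and PWOFC replicate 3) or male-specific transcripts (CWFP replicate 1), and values are given beside the results they touch. In whole flies, fewer cells of a type and less RNA per cell cannot be told apart.

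Per base of exon the family was dominated by *Mal-A1*. Its level was 382 ± 123 RPKM (CPM per kilobase of exon, mean ± SD, n = 3) in CTRL, 1360.1 ± 139 in PD and 173 ± 67.6 in PWOFC, and it ranked first of the 10 genes in all 6 groups. At the low end, *Mal-A3*, last of the 10 in both CTRL and CWOFP, had 23.3 ± 6.27 RPKM in CTRL and 6.65 ± 2.66 RPKM in CWOFP. The rank of *Mal-A5* depended on the group: it ranked 3 of 10 in CTRL (64.6 ± 4.18 RPKM) and 10 in PD (46.6 ± 0.903 RPKM). The genes also differed in how far they varied over the 18 libraries. *Mal-A7* spanned 33.9-fold, *Mal-B1* 27.6-fold and *Mal-A8* 24.9-fold between their lowest and highest library, against 2.95-fold for *Mal-B2* and 1.53-fold for *Mal-A5*. The whole family took 0.512, 0.433 and 0.47% of all counts in the 3 PD libraries, 0.128, 0.197 and 0.128% in CTRL and 0.057, 0.0801 and 0.0947% in PWOFC.

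**Figure D1:**
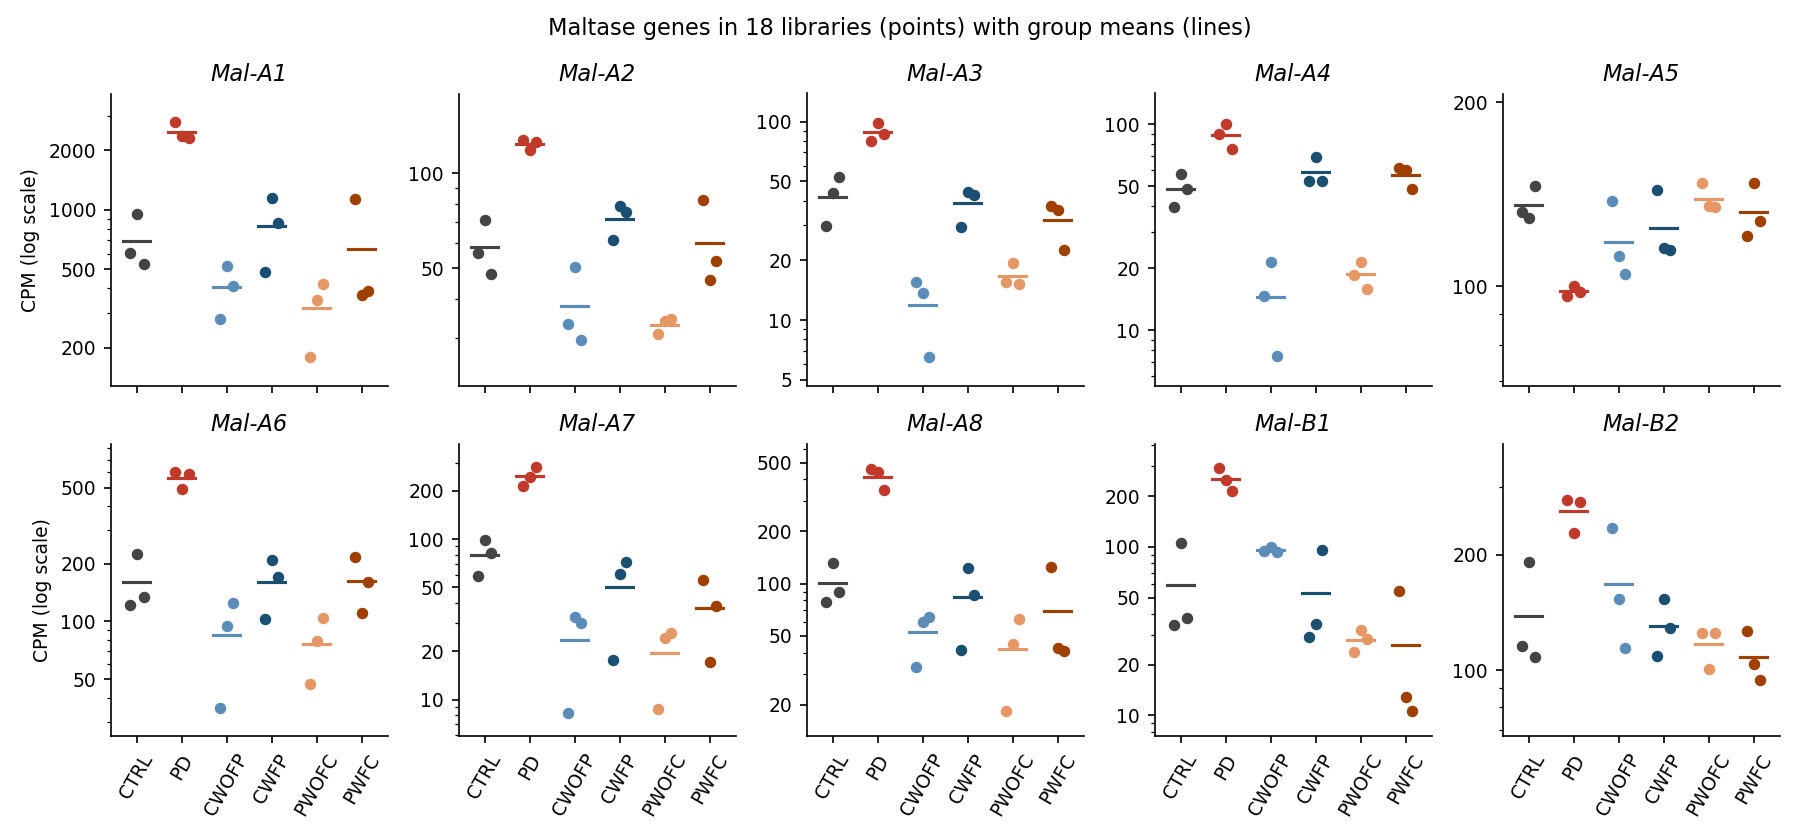
Level of each maltase gene in CPM (y axis, log scale, a range of its own in each panel) by group (x axis), with 1 point per library and a line at the mean of 3 libraries. For 9 of the 10 genes the 3 PD points lie above every CTRL point, while for *Mal-A5* they lie below every library of the other groups, between 96.2 and 100.0 CPM.

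The first question was how the family responded to 7 days of rotenone. In PD flies 7 of 10 maltase genes were called higher than in CTRL, and none was called lower, whereas 1.09% of the 12643 genes tested were called higher. The called genes were *Mal-A1*, *Mal-A2*, *Mal-A3*, *Mal-A6*, *Mal-A7*, *Mal-A8* and *Mal-B1*. The median log2 fold change was 1.36 over the family and 0.05 over all genes tested. The 3 PD libraries did not overlap the 3 CTRL libraries for any of the 10 genes (9 higher, 1 lower), a pattern shown by 39.0% of all genes tested.

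*Mal-A1* had 606, 953 and 532 CPM in CTRL and 2776, 2359 and 2317 CPM in PD. Every PD library was more than double the highest CTRL library, and the log2 fold change was 1.83 ± 0.24 (standard error, adjusted p = 0.00728), or 3.56-fold. *Mal-A8*, the gene at the other end of the cluster, had 78.7, 132 and 89.5 CPM in CTRL and 458, 439 and 346 CPM in PD. Its log2 fold change of 2.05 ± 0.23 (adjusted p = 0.00379) had the smallest adjusted p of the family. The neighbour that overlaps it by 6 bases, *mtt*, which encodes a receptor related to metabotropic glutamate receptors, was called higher as well, from 3.65, 3.39 and 2.17 CPM to 7.66, 6.01 and 7.59 CPM. These counts were far below those of *Mal-A8* itself.

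*Mal-A6* rose from 122, 225 and 134 CPM in CTRL to 604, 491 and 590.0 CPM in PD. *Mal-A7*, its neighbour on the opposite strand, rose from 58.5, 98.3 and 81.9 to 213, 244 and 280.3 CPM. Their log2 fold changes were 1.81 ± 0.24 (adjusted p = 0.00833) and 1.63 ± 0.22 (adjusted p = 0.00771). Thus *Mal-A1*, *Mal-A6*, *Mal-A7* and *Mal-A8*, at both ends of the cluster, each rose more than 3-fold. The genes between them had smaller fold changes. *Mal-A2* had 55.8, 71.1 and 48.1 CPM in CTRL and 128, 119 and 125 CPM in PD (log2 fold change 1.08 ± 0.18, adjusted p = 0.0199). *Mal-A3* had 29.9, 43.5 and 52.3 and 79.8, 98.9 and 86.1 CPM (log2 fold change 1.08 ± 0.22, adjusted p = 0.0396). *Mal-A4* had 39.5, 57.5 and 48.6 CPM in CTRL and 89.4, 101 and 75.6 CPM in PD, and its log2 fold change of 0.87 ± 0.19 stayed under the limit on size although the adjusted p was 0.0453. Whether the fold changes of these genes differ from one another was not tested.

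*Mal-A5* differed in direction. It had 132, 129 and 146 CPM in CTRL and 96.2, 100.0 and 97.9 CPM in PD, so that all 3 PD libraries were below all 3 CTRL libraries. The log2 fold change was −0.47 ± 0.14 and did not pass the test (adjusted p = 0.0646). Its neighbour *Mal-A6* starts 65 bases further along the same strand, and the ratio of *Mal-A1* to *Mal-A5* in CPM was 4.59, 7.36 and 3.65 in CTRL and 28.9, 23.6 and 23.7 in PD.

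**Figure D2:**
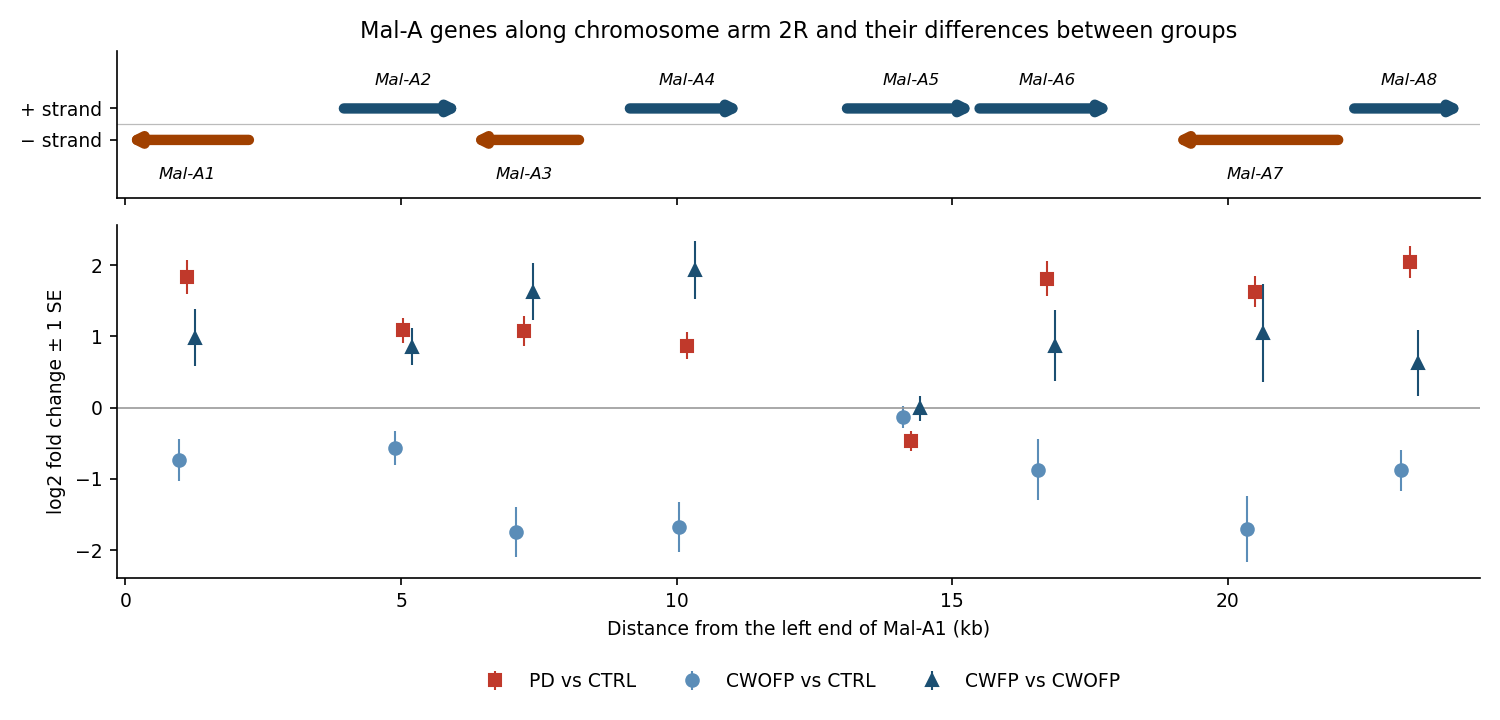
Upper panel: the 8 *Mal-A* genes drawn to scale by distance from the left end of *Mal-A1* (x axis, kb), with arrows for strand. Lower panel: log2 fold change ± 1 standard error of each gene in 3 comparisons of 3 against 3 libraries, placed at the middle of the gene. *Mal-A5* lies near 0 or below in all 3 (−0.47, −0.13 and −0.01), while its 7 neighbours are above 0 in PD against CTRL and below 0 in CWOFP against CTRL.

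The 2 *Mal-B* genes also had higher values in PD. *Mal-B1* had 34.6, 106 and 37.9 CPM in CTRL and 291, 247 and 213 CPM in PD. Its CTRL libraries were uneven, with replicate 2 far above the others, and the log2 fold change was 2.08 ± 0.40 (adjusted p = 0.0348). *Mal-B2* had 116, 191 and 108 CPM in CTRL and 278, 228 and 275 CPM in PD, with a log2 fold change of 0.91 ± 0.23 that missed both limits (adjusted p = 0.0512). Per base of exon *Mal-B1* was below *Mal-B2* in every CTRL library, at 0.384, 0.709 and 0.448 of its level, and level with it or above in PD, at 1.34, 1.39 and 0.994.

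These calls depended on which libraries entered the fit. Leaving out 1 library at a time, 1 to 9 genes were called: 1 (*Mal-A8*) without PD replicate 2, 4 without CTRL replicate 1, without CTRL replicate 3 or without PD replicate 1, 5 without PD replicate 3, and 9 without CTRL replicate 2. Of these 6 fits, *Mal-A8* kept its call in 6, and *Mal-A1*, *Mal-A6* and *Mal-A7* in 5. *Mal-A2* kept it in 2, and *Mal-A3* and *Mal-B1* in 1. A fit of all 18 libraries together called 0 of 10 (0.193% of all genes, and adjusted p from 0.0814 to 0.195 for the 10 genes). The log2 fold changes there were close to those given above, as for *Mal-A1* (1.83 ± 0.46) and *Mal-A8* (2.05 ± 0.52), with larger standard errors for all genes but *Mal-A5*.

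Beside these differences stand the markers of the midgut and of other tissues. The 4 structural enterocyte markers *mex1*, *Myo31DF*, *Myo61F* and *nub*, none of which was called, summed to 389 to 531 CPM in CTRL and 387 to 490.1 CPM in PD. Among all 8 enterocyte markers 0 were called higher and 1 lower (*Npc1b*, an intestinal sterol transport gene), and the 8 summed to 5587 to 7600 CPM in CTRL and 6215 to 8588 CPM in PD. The 5 enteroendocrine markers summed to 52.4 to 75.8 CPM in CTRL and 84.1 to 102 CPM in PD. All 3 yolk protein genes were called lower in PD, with a sum of 23639, 14887 and 24932 CPM in CTRL and 6606, 7288 and 6285 CPM in PD, and so were 3 of 4 ovary germline markers. No marker of these lists was at 0 in every library. The part of the smaller ovary and yolk share of RNA in the higher maltase CPM was not tested.

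The second question was what remained 7 days after rotenone feeding had stopped, without FMT. In PWOFC flies 9 of 10 maltase genes were called lower than in PD flies, where 23.3% of all genes tested were called lower. The PWOFC libraries lay below all PD libraries for those 9 genes, as for 36.9% of all genes. The 2 groups differ in age, in medium and in time since rotenone, and these cannot be told apart. *Mal-A1* had 179, 351 and 419 CPM in PWOFC against 2317 to 2776 CPM in PD, 7.89-fold lower (log2 fold change −2.98 ± 0.29, adjusted p = 0.000188). *Mal-A7* had 8.76, 24.2 and 25.9 CPM in PWOFC and was 12.6-fold lower than in PD (adjusted p = 0.000452), the largest log2 fold change of the family at −3.65 ± 0.41. *Mal-B2* changed least among the called genes, with 125, 101 and 125 CPM in PWOFC and a log2 fold change of −1.16 ± 0.15 (adjusted p = 0.00022).

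*Mal-A5* again went the other way, from 96.2, 100.0 and 97.9 CPM in PD to 147, 135 and 135 CPM in PWOFC. Its log2 fold change of 0.50 ± 0.13 passed the test (adjusted p = 0.00603) but not the limit on size. The same comparison called all 3 yolk protein genes, all 4 ovary germline markers and 1 of 8 enterocyte markers (*Npc1b*) higher. It called 3 of 5 enteroendocrine, 2 of 8 enterocyte (*alphaTry* and *betaTry*), 3 of 3 male germline and 2 of 3 neuron markers lower. The 8 enterocyte markers summed to 6215 to 8588 CPM in PD and 2905 to 3929.5 CPM in PWOFC. *mex1*, *Myo31DF*, *Myo61F* and *nub* alone summed to 387 to 490.1 CPM in PD and 396 to 545 CPM in PWOFC. The part of these markers in the maltase values was not tested. It shares its PD libraries with PD against CTRL, so that the results are not independent. All 9 calls were kept under the 6 other fits and without any 1 library.

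Flies never fed rotenone were compared over the same week, with the CTRL libraries used above. Between CWOFP and CTRL, 0 of 10 genes were called by edgeR, although 6 of 10 had an unadjusted p under 0.05. Of all 12437 genes tested, 1435 had an unadjusted p under 0.05 in edgeR, and 1.86% were called. All 8 *Mal-A* genes had a negative log2 fold change, and for 5 of the 10 genes every CWOFP library was below every CTRL library, as for 13.6% of all genes tested. *Mal-A3* had 29.9, 43.5 and 52.3 CPM in CTRL and 15.5, 13.8 and 6.53 CPM in CWOFP (log2 fold change −1.74 ± 0.35, adjusted p = 0.052). *Mal-A4*, the next gene along the cluster, had 39.5, 57.5 and 48.6 and 14.7, 21.5 and 7.53 CPM (log2 fold change −1.67 ± 0.35, adjusted p = 0.0627). *Mal-A7* had 58.5, 98.3 and 81.9 and 8.28, 32.7 and 29.98 CPM (log2 fold change −1.70 ± 0.46, adjusted p = 0.147). CWOFP replicate 3, the lowest library for *Mal-A3* and *Mal-A4*, also had the lowest yolk sum of its group (5272 CPM) and a muscle marker sum of 1793 CPM against 616 and 468 CPM. Without it the log2 fold changes were −1.38 for *Mal-A3*, −1.30 for *Mal-A4* and −1.85 for *Mal-A7*, and none was called. DESeq2 called these 3 genes lower (3.99% of all genes called), and the fit of all 18 libraries called *Mal-A3* and *Mal-A4* (2.66% of all genes). *Mal-B1* and *Mal-B2* had positive log2 fold changes in this comparison, 0.74 and 0.34, that did not pass the test. Without CTRL replicate 2, in which yolk protein genes summed to 14887 CPM against 23639 and 24932 CPM in the others, *Mal-B1* alone was called, and it was called higher in CWOFP.

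**Figure D3:**
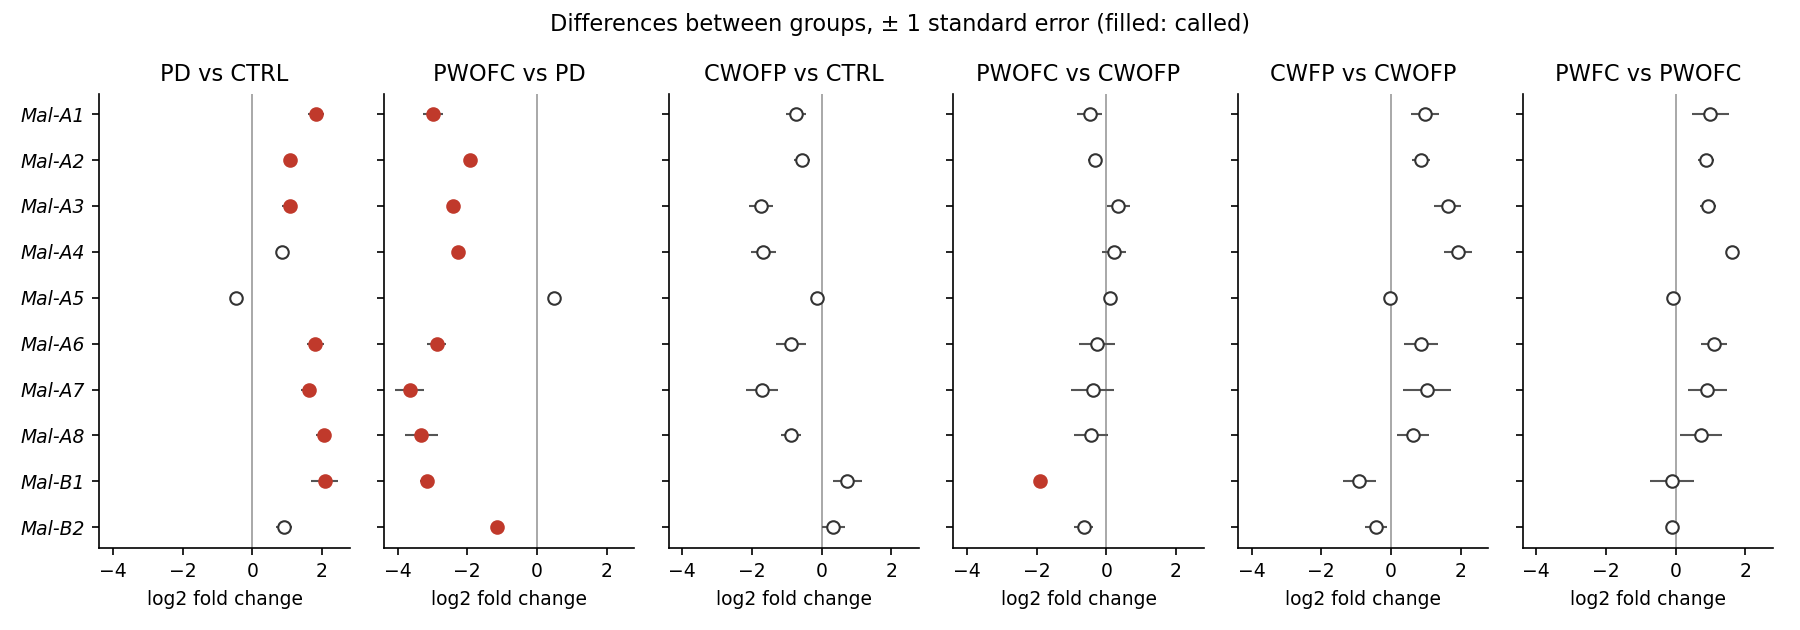
Log2 fold change (x axis) of each maltase gene (y axis) in 6 comparisons, the first group named against the second, with bars of 1 standard error and filled points for genes called. The filled points number 7 in PD against CTRL, 9 in PWOFC against PD and 1 in PWOFC against CWOFP, and *Mal-A5* is never among them.

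When formerly rotenone-fed flies were compared with former controls at day 14, 1 of the 10 genes was called. *Mal-B1* had 94.6, 100.0 and 92.8 CPM in CWOFP and 23.7, 32.1 and 28.3 CPM in PWOFC. The 3 values within each group were close to each other and the groups were far apart, 3.74-fold lower in PWOFC (log2 fold change −1.90 ± 0.12, adjusted p = 0.00327). It was 1 of 2 genes called lower among the 12297 tested (0.0163%). The call was lost without PWOFC replicate 3 (log2 fold change −1.90, adjusted p = 0.0741), whose eggshell markers summed to 2488 CPM against 10054 and 12356 CPM, and in the fit of all 18 libraries (adjusted p = 0.238, with 0.293% of all genes called). *Mal-B2* had 235, 153 and 114 CPM in CWOFP and 125, 101 and 125 CPM in PWOFC, and the log2 fold change of −0.65 ± 0.28 did not pass (adjusted p = 0.206). The 8 *Mal-A* genes had log2 fold changes from −0.47 to 0.35, with adjusted p from 0.325 to 0.765, and did not pass. Yolk protein genes summed to 9760.3, 10909.8 and 5272 CPM in CWOFP and 25743, 28513 and 22725 CPM in PWOFC, and their part in the value of *Mal-B1* was not tested.

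The effect of rotenone was then compared directly between the 2 days. In the 12 libraries of CTRL, PD, CWOFP and PWOFC, the rotenone effect at day 14 was lower than that at day 7 for 7 of 10 genes, against 11.8% of all genes called lower. The genes were *Mal-A1*, *Mal-A2*, *Mal-A6*, *Mal-A7*, *Mal-A8*, *Mal-B1* and *Mal-B2*. *Mal-B1* had the largest difference, −3.85 ± 0.49 on the log2 scale (adjusted p = 0.00184), as it was higher in PD than in CTRL and lower in PWOFC than in CWOFP. *Mal-A1* had −2.19 ± 0.45 (adjusted p = 0.00866) and *Mal-A8* had −2.38 ± 0.53 (adjusted p = 0.0106). *Mal-A3* and *Mal-A4* did not pass, at −0.59 ± 0.39 (adjusted p = 0.234) and −0.51 ± 0.41 (adjusted p = 0.32). *Mal-A5* had a difference of 0.70 ± 0.17 in the opposite direction (adjusted p = 0.0138), under the limit on size. In the fit of all 18 libraries 3 of 10 were called, *Mal-A2*, *Mal-B1* and *Mal-B2* (2.29% of all genes). The same test called all 3 yolk protein genes, all 4 ovary germline markers and 1 of 8 enterocyte markers higher, and 3 of 3 male germline markers lower. Their part in the maltase values was not tested.

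The third question was what transplanted gut content did. In former controls given gut content of PD flies, 0 of 10 maltase genes were called against CWOFP by edgeR, as were 0% of all genes tested (269 genes, 4 of them maltases, had an unadjusted p under 0.05). *Mal-A4* had 14.7, 21.5 and 7.53 CPM in CWOFP and 53.2, 69.2 and 53.1 CPM in CWFP, and every CWFP library was more than double every CWOFP library. Its log2 fold change was 1.93 ± 0.40 (unadjusted p = 0.00255 and adjusted p = 1.00, edgeR). *Mal-A3* had 15.5, 13.8 and 6.53 and 29.6, 44.3 and 42.5 CPM (log2 fold change 1.63 ± 0.40), and *Mal-A2* was also without overlap. These 3 of 10 genes compare with 4.73% of all genes that were higher without overlap. Without CWOFP replicate 3 the log2 fold changes were 1.42 for *Mal-A3* and 1.70 for *Mal-A4*. DESeq2 called *Mal-A3* and *Mal-A4* higher (0.392% of all genes called), as did the fit of all 18 libraries (0.193%). *Mal-A1* had 278, 520.2 and 413 CPM in CWOFP and 482, 1146 and 855 CPM in CWFP, and the groups overlapped. Taken by replicate number, all 8 *Mal-A* genes and 0 of the 2 *Mal-B* genes had a higher CPM in CWFP in each of the 3 pairs. For *Mal-A5* this depended on the scaling, and its fitted log2 fold change was −0.01. On CPM from total counts without TMM, *Mal-A5* had 141.5, 124.5 and 112.2 CPM in CWOFP and 134.9, 120.9 and 124.6 CPM in CWFP. It was thus lower in CWFP for replicates 1 and 2. The share of all genes higher in every pair was not counted, so no reading is drawn from the count of genes. The labels give no pairing by replicate number, which was inferred from the expression values of these libraries. With the pairing as a block in edgeR the log2 fold change of *Mal-A1* was 0.92 ± 0.20 and that of *Mal-A4* was 2.04 ± 0.33 (adjusted p = 0.969), and 0 of 10 genes were called. CWFP replicate 1, the lowest of its group for *Mal-A1*, also held few male accessory gland transcripts, whose markers summed to 23.9, 699 and 1113 CPM in the 3 CWFP libraries. The 2 *Mal-B* genes had negative values, −0.91 for *Mal-B1* and −0.44 for *Mal-B2*, that did not pass. *Mal-B1* was split in CWFP, at 29.2, 34.8 and 95.3 CPM, against 94.6, 100.0 and 92.8 CPM in CWOFP. The eggshell markers of the same CWFP libraries summed to 5391, 6131 and 973 CPM. Without CWFP replicate 3 the log2 fold change of *Mal-B1* was −1.67.

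Formerly rotenone-fed flies given gut content of CTRL flies gave values of similar sign. Of 10 genes, 0 were called against PWOFC by edgeR, as were 0% of all genes (496 genes, 4 of them maltases, had an unadjusted p under 0.05). *Mal-A4* came closest, with 18.5, 21.5 and 15.9 CPM in PWOFC and 61.5, 60.1 and 48.6 CPM in PWFC. All 3 PWFC libraries were more than double the highest PWOFC library, and the log2 fold change was 1.61 ± 0.16 (adjusted p = 0.0728). It was called by DESeq2 (0.662% of all genes) and without either PWFC replicate 1 or PWFC replicate 2. *Mal-A2*, *Mal-A3* and *Mal-A6* were also higher without overlap, which makes 4 of 10 genes against 6.50% of all genes. *Mal-A3* had 15.5, 19.5 and 15.3 CPM in PWOFC and 37.4, 35.9 and 22.6 CPM in PWFC. For *Mal-A1*, *Mal-A8* and *Mal-B1* the PWFC group was split. *Mal-A1* had 1139, 370.4 and 389 CPM, *Mal-A8* 124, 42.2 and 40.9 CPM and *Mal-B1* 55, 12.9 and 10.6 CPM, with replicate 1 far above the others each time. In the same libraries the yolk protein genes summed to 15325, 29641 and 30492 CPM, with replicate 1 the lowest. Without that replicate the log2 fold change of *Mal-A1* was 0.29 in place of 1.00, that of *Mal-A8* was 0.018 in place of 0.72, that of *Mal-B1* was −1.23 in place of −0.09 and that of *Mal-A4* was 1.58 in place of 1.61.

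Whether the 2 transplants differed in their effect was tested in the 12 libraries of day 14. No maltase gene was called (0 of 10), nor was any other gene (0% of all genes, with 303 genes but 0 maltases at an unadjusted p under 0.05), and DESeq2 called 0 of 10 (0.00624% of all genes). The differences ran from −0.65 ± 0.48 for *Mal-A3* to 0.89 ± 0.89 for *Mal-B1* on the log2 scale, with all adjusted p at 1.00. The lack of a call does not show that the 2 transplants acted alike.

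The balance of *Mal-A* to *Mal-B* transcripts followed the groups. The sum of the 8 *Mal-A* genes was 7.48, 5.76 and 7.74 times that of the 2 *Mal-B* genes in CTRL and 7.81, 8.3 and 8.03 times in PD. It was 1.69, 3.57 and 3.77 in CWOFP and 6.76, 9.82 and 6.55 in CWFP, and the 2 groups did not overlap. In formerly rotenone-fed flies it was 3.12, 5.32 and 5.29 in PWOFC and 10.2, 7.11 and 8.4 in PWFC, again without overlap. The ratio was lowest in the groups kept to day 14 without transplanted gut content. A two-sided exact permutation test of 3 against 3 libraries cannot go below p = 0.10, and the ratio was not tested.

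**Figure D4:**
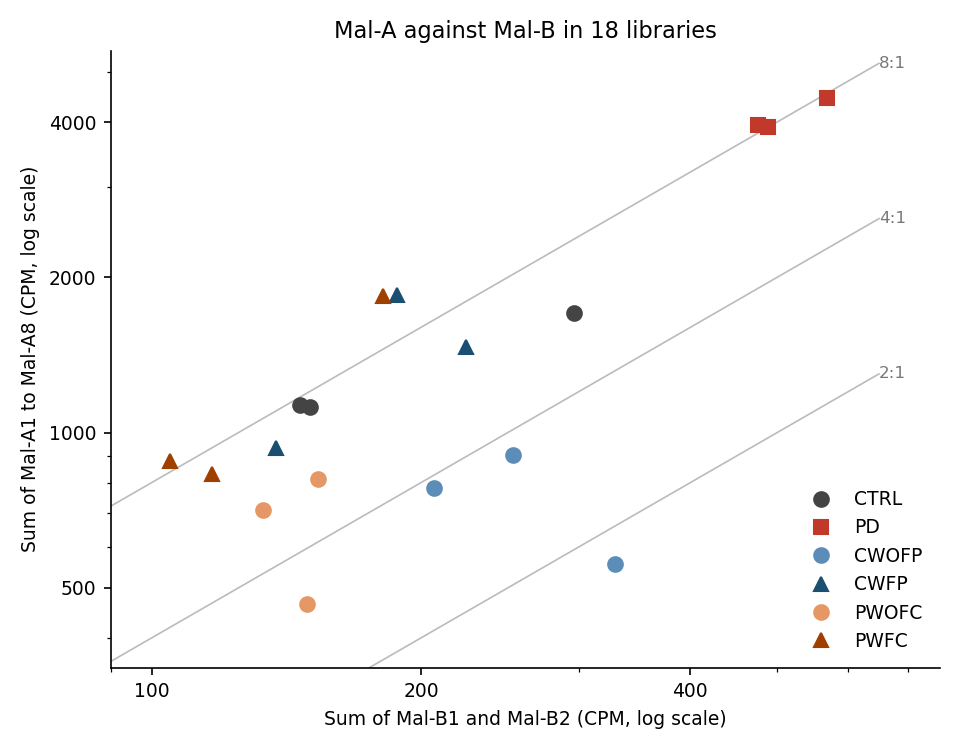
Sum of the 8 *Mal-A* genes (y axis, CPM, log scale) against the sum of the 2 *Mal-B* genes (x axis, CPM, log scale), with 1 point per library and grey lines at ratios of 2, 4 and 8. The CWOFP points lie below the line of 4 at ratios of 1.69 to 3.77, and the PD points lie close to the line of 8 at the upper right.

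Over the 18 libraries the *Mal-A* genes other than *Mal-A5*, a grouping made after the values were seen, varied together. Pearson's r of log2 CPM was 0.65 to 0.98 over their 21 pairs, with a median of 0.88. *Mal-A5* had r from −0.79 to −0.27 with the 7 others. *Mal-B1* had r from 0.20 to 0.75 with those 7 genes and 0.85 with *Mal-B2*. The points share groups, libraries and normalisation, so these values describe the set of libraries and are not tests.

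Of 12971 genes outside the family, the gene most like the mean of the *Mal-A* genes over the 18 libraries was *tobi*, with r = 0.96. *tobi* (target of brain insulin) encodes another alpha-glucosidase. It was followed by *CG6484* (0.95), *CG16758* (0.94), *Eglp2* (0.92), an aquaporin-related gene, and *CG17108* (0.92). *tobi* had 185, 208 and 237 CPM in CTRL and 1022, 706 and 843 CPM in PD (log2 fold change 2.03 ± 0.19, adjusted p = 0.00234). It had 55.6, 105 and 97.6 CPM in CWOFP and 29.7, 81.1 and 94.1 CPM in PWOFC, so that it was highest in PD and lowest in the day 14 groups without FMT. The genes most like *Mal-B1* were *Cyp4ac3* (0.93), a cytochrome P450 gene, *CG15406* (0.92) and *pyx* (0.91), a TRP channel gene. Those most like *Mal-B2* were *lncRNA:CR45251* (0.91), *CG14401* (0.91) and *Thor* (0.91), which encodes the translation inhibitor 4E-BP. None of the 5 nearest genes was shared between the 3 profiles.

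The other genes of sugar digestion, uptake and sensing were called in some comparisons. Of 24 such genes tested in PD against CTRL, 1 was called higher (*tobi*) and 0 lower, with a median log2 fold change of 0.01. Of all 12643 genes tested, 138 were called higher and 147 lower. The 3 amylase genes had values of 0.78 (*Amy-p*), 0.63 (*Amy-d*) and 1.10 (*Amyrel*), with adjusted p of 0.0529, 0.0508 and 0.175. *Amy-p* and *Amy-d* are near-identical copies, and how reads were split between them is uncertain. From CTRL to CWOFP 3 of the 24 were called lower, *Amy-p*, *Amy-d* and *tobi*, beside 227 of all 12437 genes tested. From PD to PWOFC 2901 of all 12436 genes tested (23.3%) were called lower and 1199 higher. Of the 24, 7 were called lower and 0 higher. The 7 were the 3 amylase genes, *tobi* and the sugar transporter genes *Tret1-2*, *sut3* and *sut4*. Of these, *Amyrel* had at most 4.46 CPM in PD and at most 0.447 CPM in PWOFC. None of the 24 genes was called in PWOFC against CWOFP (0 of 23 tested) or in either FMT comparison (0 of 24). *Amy-p* had 765, 1004 and 600.3 CPM in CTRL and 136, 64.2 and 44.2 CPM in CWOFP, 9.24-fold lower (log2 fold change −3.21 ± 0.45, adjusted p = 0.0142), while the largest fold of a maltase gene in this comparison was 3.34 (*Mal-A3*). In FMT recipients *Amy-p* had 188, 479 and 164 CPM in CWFP and 1608, 782 and 1105 CPM in PWFC, against 307, 206 and 403 CPM in PWOFC. *Amy-p* and *Amy-d* were higher without overlap in both FMT comparisons, and neither was called. *Amyrel* was as well, but it was near the floor without FMT. It had 0.174, 0.555 and 0.174 CPM in CWOFP and 0.0498, 0.203 and 0.447 CPM in PWOFC. It failed the filter between those 2 groups, so it entered the FMT comparisons through the recipients, and its difference there is not counted as support. The share of all genes higher without overlap was 4.73% in CWFP against CWOFP and 6.50% in PWFC against PWOFC.

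In the test of the rotenone effect between days, 3 of the 24 genes were called higher and 3 lower. Of all 12817 genes tested, 1355 were called higher and 1516 (11.8%) lower. *Amy-d* was called in the opposite direction to the maltase genes, at 1.60 ± 0.54 (adjusted p = 0.0368), and *tobi* in the same direction, at −2.37 ± 0.50 (adjusted p = 0.00924). Among the regulators, *daw*, which encodes Dawdle, had log2 fold changes of −0.44 in PD against CTRL and −0.86 in CWFP against CWOFP, neither of which passed. *sug*, which encodes Sugarbabe, had 0.45 and −1.07 and did not pass either. Between days *GCS2alpha* (1.09, adjusted p = 0.0064) and *GCS2beta* (1.37, adjusted p = 0.0018), which encode subunits of the glucosidase of glycoprotein folding in the endoplasmic reticulum, were called higher. *Tret1-2*, a sugar transporter gene, was called lower (−1.46, adjusted p = 0.0389), and so was *sug* in its rotenone effect (−1.07 ± 0.36, adjusted p = 0.0382).

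**Figure D5:**
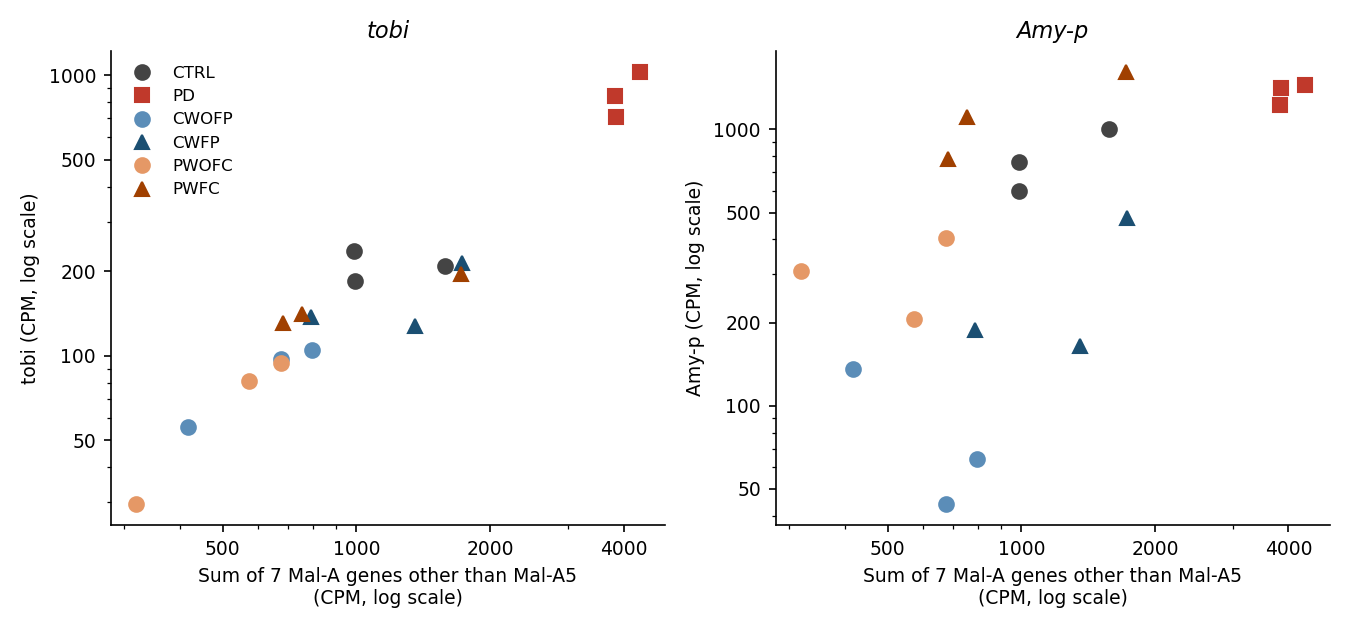
Level of *tobi* (left) and *Amy-p* (right) in CPM (y axes, log scale) against the sum of the 7 *Mal-A* genes other than *Mal-A5* (x axes, CPM, log scale), with 1 point per library. *tobi* rises with the *Mal-A* sum from 29.7 to 1022 CPM, whereas *Amy-p* differs at like *Mal-A* sums: the 3 CWOFP libraries, at sums of 418 to 793 CPM, have 44.2 to 136 CPM of *Amy-p*, and PWFC replicates 2 and 3, at 683 and 753 CPM, have 782 and 1105 CPM.

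The enterocyte marker sums varied over the day 14 groups. None of the 8 markers was called in PWOFC against CWOFP or in either FMT comparison. The 8 enterocyte markers summed to 2797, 2396 and 1822 CPM in CWOFP, 3743, 4620.1 and 3342 CPM in CWFP, 3929.5, 3917 and 2905 CPM in PWOFC and 5987, 6622 and 8229.9 CPM in PWFC. These sums are carried by the trypsin genes *alphaTry* and *betaTry*, of which *alphaTry* was called lower in CWOFP than in CTRL (log2 fold change −1.44 ± 0.25, adjusted p = 0.0307). The subset *mex1*, *Myo31DF*, *Myo61F* and *nub* summed to 389 to 498 CPM in CWOFP, 454 to 529.7 in CWFP, 396 to 545 in PWOFC and 502 to 562 in PWFC. None of these 4 was called in any comparison.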

How the data were processed

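Poly(A) RNA of whole flies was sequenced by the authors. Per their methods, reads were checked with FastQC, trimmed with cutadapt, mapped to dm6 with HISAT2 and counted per gene with featureCounts. Versions and strand settings are not given in the sources used here, and the submitters' notes also name StringTie 1.3.1 and DESeq2 1.36.0. The deposited values are raw counts per gene of 18 libraries. Of 24 labelled samples, 6 were not analysed here.

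For each pair of groups, a model of the 6 libraries alone was fitted with edgeR 4.0.16 in R 4.3.3 (filterByExpr, TMM, robust quasi-likelihood test, Benjamini-Hochberg adjustment over all genes tested), and both interactions on 12 libraries. The edgeR and DESeq2 fits of PD against CTRL were also run on simulated data, with the outcome not given here. The other comparisons were not simulated. RPKM used exon lengths of BDGP6.54. Alternatives were DESeq2 1.42.0, relative log expression and upper quartile scaling, no filter, a replicate block, 1 fit of all libraries, total-count CPM and leaving out each library. Named genes were all members, 4 lists (25 genes, 1 of them unmatched) of digestive, transport and sensing genes, and the 5 genes with the highest r. The members and lists were chosen with earlier results of these data known.

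Replicate numbers were taken as pairing in CWFP and CWOFP only, where deviations from the group means correlated at 0.49, 0.26 and 0.35 over 12981 genes. No label gives this pairing, which was inferred from the same values that were tested. With the replicate block 0 maltase genes were called there, as without it. Total counts per library (17920498 to 29165130) set the counting error.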

Additional observations from a re-analysis of the deposited data

Results flagged for a closer look

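The rotenone effect (rotenone-fed minus control, log2 scale) differed between day 7 and day 14 for 7 maltase genes by edgeR's interaction test. The differences were −2.19 for *Mal-A1* (adjusted p = 0.00866), −1.28 for *Mal-A2* (adjusted p = 0.00913), −1.96 for *Mal-A6* (adjusted p = 0.0242) and −1.90 for *Mal-A7* (adjusted p = 0.0467). They were −2.38 for *Mal-A8* (adjusted p = 0.0106), −3.85 for *Mal-B1* (adjusted p = 0.00184) and −1.43 for *Mal-B2* (adjusted p = 0.0152). *Mal-B1* changed direction, at 2.08 on day 7 and −1.90 on day 14. Its day 7 call was kept in 1 of 6 fits that left out 1 library, and its day 14 call in 5 of 6. *Mal-A7* had the largest adjusted p of the 7 and was called in 2 of 12 fits that left out 1 library. Age, medium and time since rotenone differ together between the days and cannot be told apart.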

How the results depend on the processing

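With all 18 libraries in 1 fit, which also changed the scaling and the genes kept by the filter, the counts of maltase genes called were 0 in place of 7 in PD against CTRL, 0 in place of 1 in PWOFC against CWOFP, 3 in place of 7 for the rotenone effect between days, and 2 in place of 0 both in CWFP against CWOFP and in CWOFP against CTRL. DESeq2 called 2 in CWFP against CWOFP, 1 in PWFC against PWOFC and 3 in CWOFP against CTRL, where edgeR called 0. Without a filter 1 gene was called in PWFC against PWOFC and 1 in CWOFP against CTRL, and 6 in place of 7 between days (*Mal-A7* lost). Upper quartile scaling gave 9 in place of 7 in PD against CTRL (*Mal-A4* and *Mal-B2* gained). A replicate block gave 2 in CWOFP against CTRL, where the numbers were not shown to pair the libraries, and changed no other count of maltase genes. Leaving out 1 library gave 1 to 9 in PD against CTRL, 0 to 1 in PWOFC against CWOFP, in PWFC against PWOFC and in CWOFP against CTRL, 5 to 7 for the rotenone effect between days, and 9 throughout in PWOFC against PD. The causes were not tested.

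Directions turned for the following genes, none of which was called by the main test in that comparison. For *Mal-A5* in CWFP against CWOFP (−0.01) the log2 fold change was 0.079 with DESeq2, 0.069 with relative log expression, 0.025 with upper quartile scaling and 0.075 in the fit of all libraries. For *Mal-B1* in PWFC against PWOFC it was 0.026 with upper quartile scaling. For the difference between transplants, *Mal-A1* gave −0.0025 with DESeq2, −0.0012 with relative log expression and −0.035 in the fit of all libraries, *Mal-A2* gave −0.022, −0.020 and −0.060, and *Mal-A7* gave 0.33 with the replicate block. Without 1 library, values spanned 0 in PWOFC against CWOFP for *Mal-A4* (−0.10 to 0.61) and *Mal-A6* (−0.56 to 0.11), in CWFP against CWOFP for *Mal-A5* (−0.078 to 0.13), in PWFC against PWOFC for *Mal-A5* (−0.11 to 0.018) and *Mal-B1* (−1.23 to 0.28), and in CWOFP against CTRL for *Mal-A5* (−0.28 to 0.011) and *Mal-B2* (−0.00704 to 0.66). For the difference between transplants they did so for *Mal-A1* (−0.72 to 0.37), *Mal-A2* (−0.27 to 0.25), *Mal-A5* (−0.18 to 0.042), *Mal-A6* (−0.19 to 0.63), *Mal-A7* (−0.54 to 0.33), *Mal-A8* (−0.64 to 0.58) and *Mal-B1* (−0.35 to 1.65). With all libraries kept, 439 log2 fold changes of single genes stayed on their side of the threshold with their direction, 16 gained a call and 13 lost one.

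Over all genes, the calls in PD against CTRL were 285, against 675 with DESeq2, 485 with upper quartile scaling, 468 without a filter, 532 with the block and 25 in the fit of all libraries. In PWOFC against CWOFP they were 4, against 501 with DESeq2, 43 with the block and 38 in the fit of all libraries. Upper quartile scaling moved the median over all genes from 0.05 to 0.23 in PD against CTRL and from −0.09 to −0.39 in PWOFC against PD. The share of calls that were higher went from 48.4% to 72.2% (34.4% with DESeq2) and from 29.2% to 13.1%. In the test between days it went from 47.2% to 14.9%, with the median at −0.38 in place of −0.01. In the fit of all libraries the calls over all genes were 2388 in place of 4100 in PWOFC against PD and 297 in place of 2871 between days. DESeq2 gave 522 in place of 231 in CWOFP against CTRL, 50 in place of 0 in CWFP against CWOFP and 82 in place of 0 in PWFC against PWOFC.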
